A study of Mus musculus with 12 samples.

Results

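The clustered protocadherins are 54 of the 27978 genes in the data, 11 of the alpha cluster, 22 of the beta cluster and 21 of the gamma cluster. They were chosen by gene symbol alone, as Pcdha or Pcdhac with a number, Pcdhb with a number, and Pcdhga, Pcdhgb or Pcdhgc with a number. RefSeq (assembly GRCm38.p6) places all 54 on mouse chromosome 18. The genes Pcdha4, Pcdha6, Pcdha7 and Pcdhgb8, which follow the same naming in RefSeq, were not analysed here.

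Clustered protocadherins are cell-surface adhesion proteins of neurons. In the alpha and gamma clusters each gene has its own promoter and its own large first exon, which encodes the extracellular part and is spliced to constant exons that all genes of the cluster share, while beta genes have a single coding exon and no shared one. A neuron uses a varying choice of these promoters, with CTCF and cohesin bringing a distant enhancer to the chosen one, and the resulting proteins bind their own kind on neighbouring membranes, which is known for self-avoidance of dendrites and axons. The C-type genes, which sit at the far end of the alpha and gamma clusters, are less subject to that choice and are used by most neurons.

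The data are gene levels from RNA-seq of the hippocampus in mice that had received a fecal microbiota transplantation (FMT), with 12 libraries in 3 groups of 4. FMT-SP is named FMT-DSS+SP in the series' description, where SP is the neuropeptide substance P. FMT-DSS and FMT-CON are the other groups. The labels do not say what DSS and CON stand for, how or when substance P was given, or the strain, sex and age of the mice. Nor do they tie libraries to animals, and every p-value below measures the spread between these libraries, which may be technical. Levels are FPKM as the authors computed them, which scales the fragments of a gene to its transcript length in kilobases and to 1000000 mapped fragments, and each library is called by its group and its number in the labels.

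Depth, estimated from the values, was 31.5 to 37.1 M mapped fragments per library (M, 1000000 fragments). Of the markers of hippocampal principal neurons, Prox1, Neurod6, Zbtb20 and Fibcd1 were present in all 12 libraries, with means of 10.8, 74.1, 7.68 and 20.9 FPKM. The 13 choroid plexus markers summed to 20.04 to 3868 FPKM in FMT-SP, 1315 to 2948 FPKM in FMT-DSS and 33.3 to 3639 FPKM in FMT-CON, with Tmem72 at 0 in 1 library. The 10 striatal markers summed to 68.5 to 142 FPKM in FMT-SP, 95.5 to 412 FPKM in FMT-DSS and 75.5 to 204 FPKM in FMT-CON, with Isl1 at 0 in 1 library. Pituitary and hypothalamic markers summed to 3532 FPKM in FMT-CON 3 and to at most 27.1 FPKM in every other library. The libraries numbered 4 stood apart in all 3 groups. The 13 mitochondrially encoded genes took 24.0% of the summed FPKM in FMT-SP 4, 29.0% in FMT-DSS 4 and 27.7% in FMT-CON 4, and 15.9% to 20.3% in the other 9 libraries. Many ratios, counts and changes that turn on those libraries are also given without 1 or all of them. Leaving out 1 of them leaves the groups unequal in such libraries.

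The 3 clusters differed in how far their highest genes stood above the median gene. The beta cluster had a median of 0.939 FPKM over the 22 gene means and a highest mean of 3.38 FPKM. In the alpha cluster Pcdhac2 averaged 2.46 FPKM and the median gene 0.166 FPKM. In the gamma cluster Pcdhgc5 averaged 8.71 FPKM and Pcdhgc3 5.75 FPKM, against a median gene at 0.871 FPKM. All 3 of these genes are C-type. Without Pcdhgc3 and Pcdhgc5 the gamma means ran from 0.443 to 2.19 FPKM. Without Pcdhb1 the beta means ran from 0.310 to 3.38 FPKM. In all, 17 members reached the mean of 1 FPKM set for tests, 1 alpha, 9 beta and 7 gamma genes, and 37 fell below it. A total of 52 were above 0 in all 12 libraries.

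**Figure D1:**
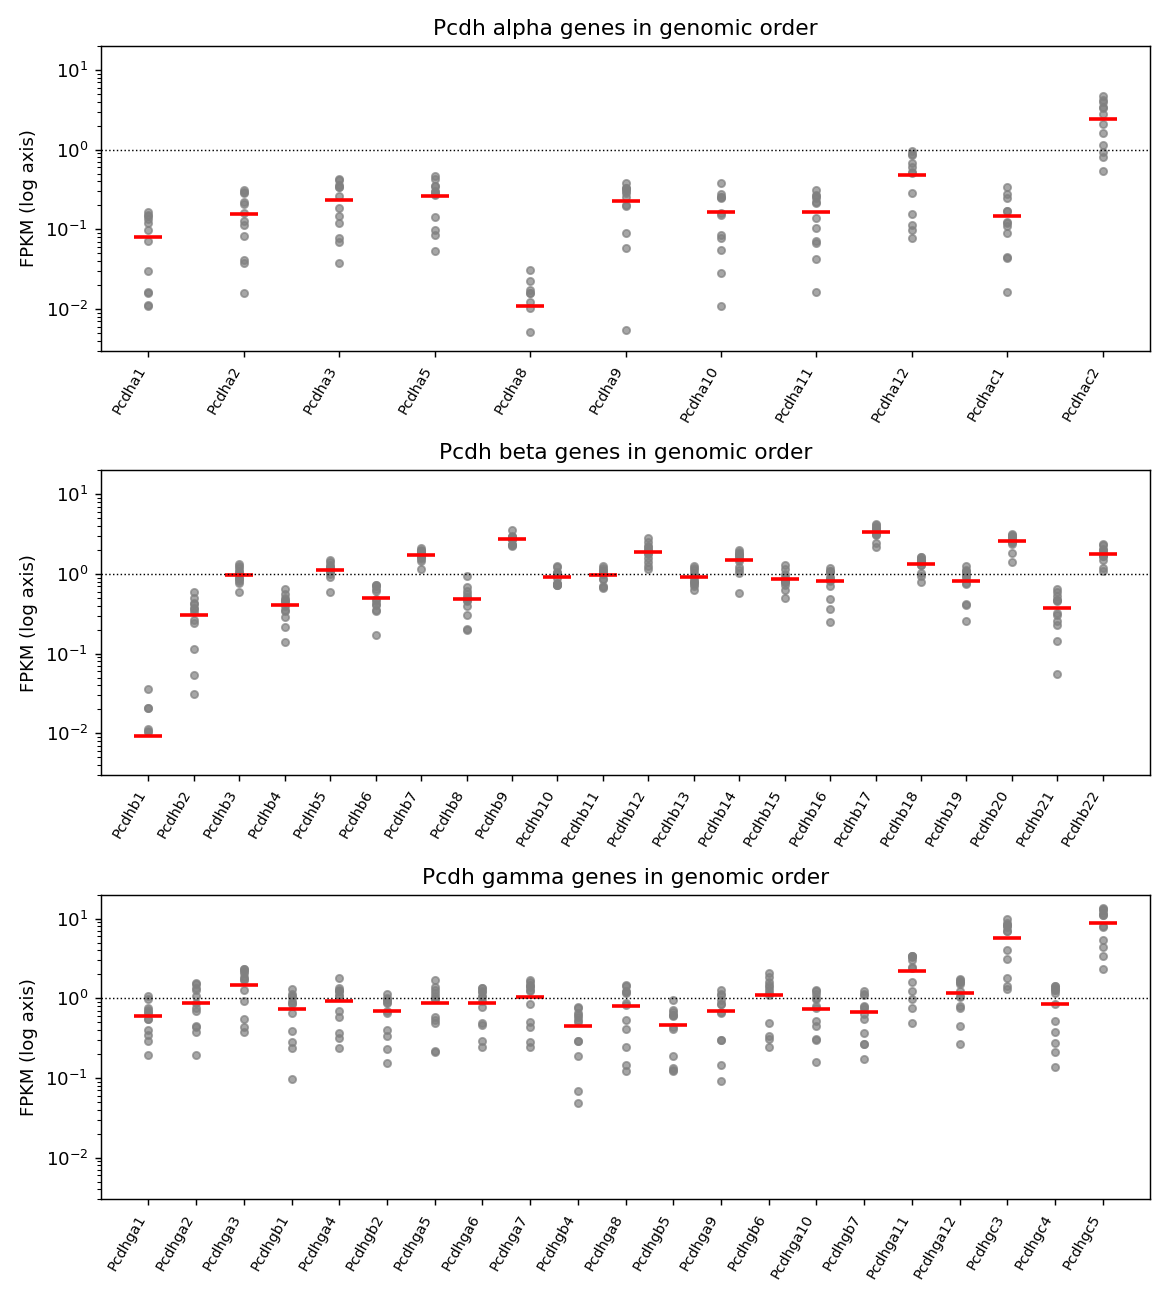
FPKM of every clustered protocadherin in every library (grey points, log axis) with the mean over 12 libraries (red bar), genes in genomic order within the alpha, beta and gamma clusters. The dotted line marks 1 FPKM, libraries at 0 are not drawn, and Pcdhac2, Pcdhgc3 and Pcdhgc5 stand above the other genes of their clusters.

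The gene models bear on these levels. In the GENCODE vM21 annotation of GRCm38, all 10 alpha genes with a gene model share 3 exons, and all 21 gamma genes share 2, while no exon is shared between beta genes and all 22 have a single-exon transcript. Where the authors' counting put fragments from shared exons, and fragments that match several of these similar genes, is not given in the sources used here. Levels of alpha and gamma genes, and levels compared between clusters, are uncertain to that extent. Differences between libraries for the same gene are read as if 1 counting rule held throughout, which the sources do not state. Shared fragments may count for several genes, so counts of alpha or gamma genes are not counts of separate observations.

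Among the alpha genes, Pcdhac2 lies last in the cluster and is known from mice for the tiling of serotonergic axons. It had 2.80, 3.91, 3.31 and 0.934 FPKM in FMT-SP 1 to 4, against 3.45, 4.70, 1.64 and 0.537 FPKM in FMT-DSS 1 to 4 and 2.10, 4.2, 1.14 and 0.802 FPKM in FMT-CON 1 to 4. The library numbered 4 was the lowest of each group, and the groups overlapped. Pcdhac2 made up 49.5% to 65.0% of the summed alpha FPKM in each of the 12 libraries. Pcdhac1, the other C-type alpha gene, averaged 0.146 FPKM, with 0.0448 to 0.340 FPKM in FMT-SP, 0.0164 to 0.250 FPKM in FMT-DSS and 0.0433 to 0.279 FPKM in FMT-CON. It stood ninth of the 11 alpha genes in mean level.

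The alternate alpha genes encode proteins with their own recognition surface and the shared alpha cytoplasmic tail. Pcdha12 led them with 0.678, 0.850, 0.523 and 0.0791 FPKM in FMT-SP, 0.874, 0.509, 0.284 and 0.0992 FPKM in FMT-DSS and 0.613, 0.963, 0.158 and 0.115 FPKM in FMT-CON. Pcdha5 followed with 0.272, 0.463, 0.304 and 0.0994 FPKM in FMT-SP, 0.427, 0.351, 0.278 and 0.0539 FPKM in FMT-DSS and 0.297, 0.346, 0.144 and 0.0853 FPKM in FMT-CON. In both genes all groups overlapped and the library numbered 4 was the lowest of each group. Pcdha8 was the lowest, at a mean of 0.0109 FPKM and at 0 in 4 libraries. Its values were 0.0158, 0.0172, 0.0311 and 0.0226 FPKM in FMT-SP, 0, 0.00515, 0.0121 and 0 FPKM in FMT-DSS and 0.0158, 0.0104, 0 and 0 FPKM in FMT-CON. At the annotated length of 5338 bases and the estimated depth these stand for at most 6.10 fragments in a library. The other 6 alpha genes averaged between Pcdha1 at 0.0813 FPKM and Pcdha3 at 0.233 FPKM.

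Beta genes encode proteins with a short cytoplasmic tail of their own, without the constant part of the other clusters. Pcdhb17 led them with 3.38, 3.86, 4.29 and 3.09 FPKM in FMT-SP, 3.19, 3.16, 3.68 and 2.19 FPKM in FMT-DSS and 4.08, 3.75, 3.48 and 2.45 FPKM in FMT-CON. It took 10.5% to 14.5% of the summed beta FPKM. Pcdhb9 had 2.75, 3.51, 2.73 and 2.28 FPKM in FMT-SP, 2.92, 3.01, 2.78 and 2.35 FPKM in FMT-DSS and 2.88, 2.92, 2.32 and 2.22 FPKM in FMT-CON. Pcdhb20 had 2.82, 2.53, 2.56 and 2.48 FPKM in FMT-SP, 2.57, 2.35, 2.87 and 1.42 FPKM in FMT-DSS and 2.97, 3.05, 3.20 and 1.84 FPKM in FMT-CON. All 3 genes were lowest in the library numbered 4 of each group, by a small margin for Pcdhb20 in FMT-SP, and their groups overlapped.

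Pcdhb5, Pcdhb12 and Pcdhb14 stood lower in the beta order. Pcdhb12 had 2.50, 2.79, 1.79 and 1.40 FPKM in FMT-SP, 2.01, 2.19, 1.98 and 1.25 FPKM in FMT-DSS and 1.58, 2.22, 1.83 and 1.16 FPKM in FMT-CON. Pcdhb14 had 1.77, 2.01, 1.69 and 1.23 FPKM in FMT-SP, 1.86, 1.80, 1.56 and 0.581 FPKM in FMT-DSS and 1.47, 1.68, 1.02 and 1.13 FPKM in FMT-CON. Pcdhb5 had 1.31, 1.40, 1.22 and 0.924 FPKM in FMT-SP, 1.09, 1.01, 1.08 and 0.598 FPKM in FMT-DSS and 1.09, 1.5, 1.22 and 1.15 FPKM in FMT-CON. Of these 3 genes, Pcdhb5 in FMT-DSS against FMT-CON was the one case in which 2 groups did not overlap, though FMT-DSS 1 and FMT-CON 1 both round to 1.0909 FPKM. Pcdhb1, first in the cluster, was nearly silent, with at most 2.98 estimated fragments in a library and 0 in 6 of the 12. The other 15 beta genes averaged between Pcdhb2 at 0.310 FPKM and Pcdhb22 at 1.78 FPKM.

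The 3 C-type gamma genes lie last in their cluster. Pcdhgc5 had 11, 13.2, 11.2 and 4.38 FPKM in FMT-SP, 13.5, 11.7, 7.81 and 2.33 FPKM in FMT-DSS and 7.97, 12.7, 5.45 and 3.39 FPKM in FMT-CON. Pcdhgc3, whose protein binds Axin1 and dampens Wnt signalling in mouse cells, had 6.96, 8.85, 7.94 and 1.82 FPKM in FMT-SP, 8.31, 8.23, 4.03 and 1.44 FPKM in FMT-DSS and 6.97, 10.01, 3.12 and 1.29 FPKM in FMT-CON. Pcdhgc4, needed for the survival of cortical interneurons in mice, had 0.841, 1.41, 1.27 and 0.278 FPKM in FMT-SP, 1.33, 1.42, 0.519 and 0.138 FPKM in FMT-DSS and 1.17, 1.28, 0.375 and 0.211 FPKM in FMT-CON. All 3 genes were lowest in the library numbered 4 of each group, and in FMT-DSS and FMT-CON the library numbered 3 was the next lowest. Their groups overlapped throughout. Over the 12 libraries, the estimated fragments behind Pcdhgc5 averaged 1469 and those behind Pcdhgc4 153.

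The A-type and B-type gamma genes carry the promoters that neurons choose among. Pcdhga11 had 2.38, 3.37, 2.98 and 0.982 FPKM in FMT-SP, 3.37, 3.43, 1.59 and 0.485 FPKM in FMT-DSS and 2.44, 3.30, 1.22 and 0.748 FPKM in FMT-CON. Pcdhga3 had 1.84, 2.07, 1.73 and 0.437 FPKM in FMT-SP, 2.35, 2.34, 1.71 and 0.376 FPKM in FMT-DSS and 1.26, 2.21, 0.915 and 0.550 FPKM in FMT-CON. Pcdhga12 had 1.22, 1.61, 1.51 and 0.760 FPKM in FMT-SP, 1.71, 1.58, 1.08 and 0.268 FPKM in FMT-DSS and 1.05, 1.77, 0.791 and 0.452 FPKM in FMT-CON. These genes followed the same order of libraries as the C-type genes within FMT-DSS and FMT-CON at the low end, with number 4 lowest and number 3 next. Pcdhga7 had 1.23, 1.45, 1.28 and 0.497 FPKM in FMT-SP, 1.59, 1.7, 0.852 and 0.280 FPKM in FMT-DSS and 1.39, 1.43, 0.434 and 0.246 FPKM in FMT-CON. Pcdhgb4, the lowest gamma gene at a mean of 0.443 FPKM, had 0.191 to 0.747 FPKM in FMT-SP, 0.0684 to 0.782 FPKM in FMT-DSS and 0.0493 to 0.528 FPKM in FMT-CON. In these 2 genes the library numbered 4 was again the lowest of each group.

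Shares of the gamma sum by type moved less than its level. C-type genes took 44.3% to 50.7% of the summed gamma FPKM over the 12 libraries, A-type genes 36.8% to 41.1% and B-type genes 10.7% to 14.9%. Within the C-type the shares moved more, with Pcdhgc3 at 12.7% to 20.7% of the gamma sum and Pcdhgc5 at 23.7% to 33.4%.

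The summed level of a cluster differed more between libraries of 1 group than between groups. For gamma it was 37.0, 46.5, 42.9 and 13.4 FPKM in FMT-SP, 47.0, 48.3, 26.3 and 8.0 FPKM in FMT-DSS and 33.7, 48.7, 18.4 and 10.1 FPKM in FMT-CON. For alpha it was 5.30, 7.31, 5.89 and 1.54 FPKM in FMT-SP, 6.53, 7.48, 3.01 and 0.826 FPKM in FMT-DSS and 4.24, 7.15, 2.05 and 1.33 FPKM in FMT-CON. For beta it was 28.4, 32.1, 29.5 and 21.5 FPKM in FMT-SP, 30.3, 26.9, 26.9 and 16.4 FPKM in FMT-DSS and 29.4, 30.5, 25.4 and 19.1 FPKM in FMT-CON. The highest library exceeded the lowest 6.09-fold for gamma, 9.06-fold for alpha and 1.96-fold for beta. Without the libraries numbered 4 these ratios were 2.65, 3.64 and 1.26. They stayed at 5.77, 8.66 and 1.81 after a median-ratio rescaling of the 12 libraries and at 5.89, 9.01 and 1.79 after quantile normalization. In bulk tissue, fewer cells that use these genes and less RNA of them per cell cannot be told apart.

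**Figure D2:**
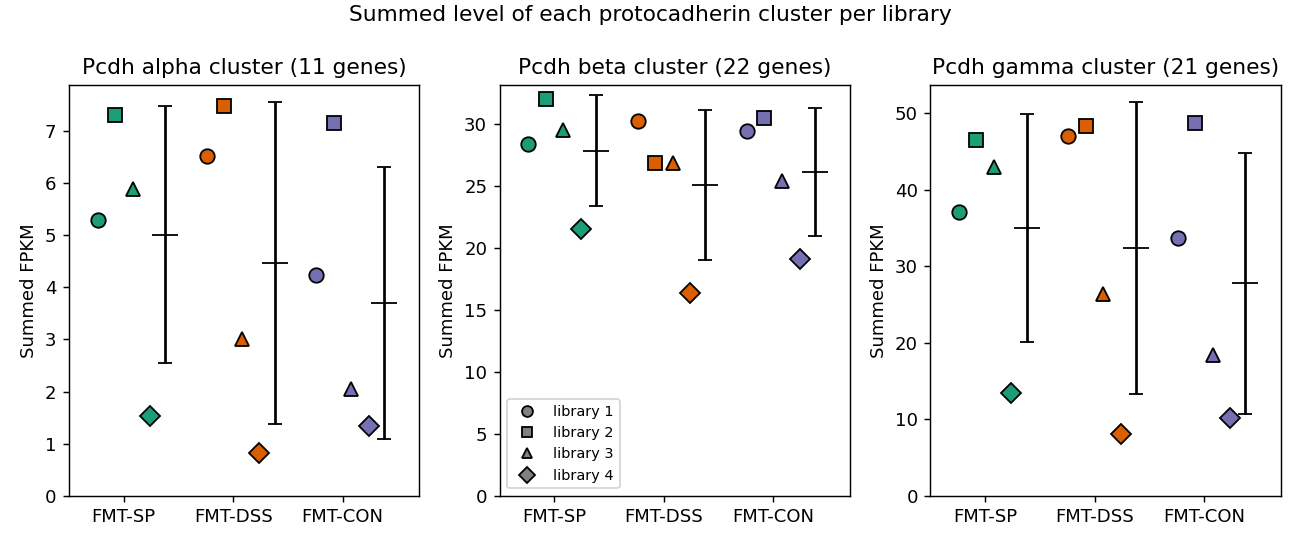
Summed FPKM of the alpha, beta and gamma clusters in each library (points, shape by library number), in FMT-SP, FMT-DSS and FMT-CON, with the group mean and SD (black, n = 4). The library numbered 4 (diamond) is the lowest of each group in every cluster, at 8.0 to 13.4 FPKM for gamma and 16.4 to 21.5 FPKM for beta.

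Alpha and gamma genes were low together in the same libraries, gene by gene. Relative to the median of libraries 1 to 3, the gamma sum of the library numbered 4 was 31.2% in FMT-SP, 17% in FMT-DSS and 30.1% in FMT-CON. The alpha sum was 26.1%, 12.6% and 31.4% in the same groups, and the beta sum 72.9%, 61% and 65.0%. Library 4 was below all 3 others for 21 of 21 gamma genes in FMT-SP, 21 of 21 in FMT-DSS and 20 of 21 in FMT-CON. For beta it was so for 20, 19 and 16 of 22 genes, and for alpha for 10, 10 and 8 of 11, in the same order of groups. Over all 12559 genes tested, library 4 was the lowest of its group for 38.7% in FMT-SP, 41.3% in FMT-DSS and 43.4% in FMT-CON. FMT-DSS 4 alone was the lowest of all 12 libraries for 34 of the 54 members, 63.0%, against 28.0% of all tested genes. These counts of members include 37 genes below the filter, which the shares over all tested genes leave out. Among tested members FMT-DSS 4 was the lowest for Pcdhac2, 6 of 9 beta genes and 5 of 7 gamma genes.

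**Figure D3:**
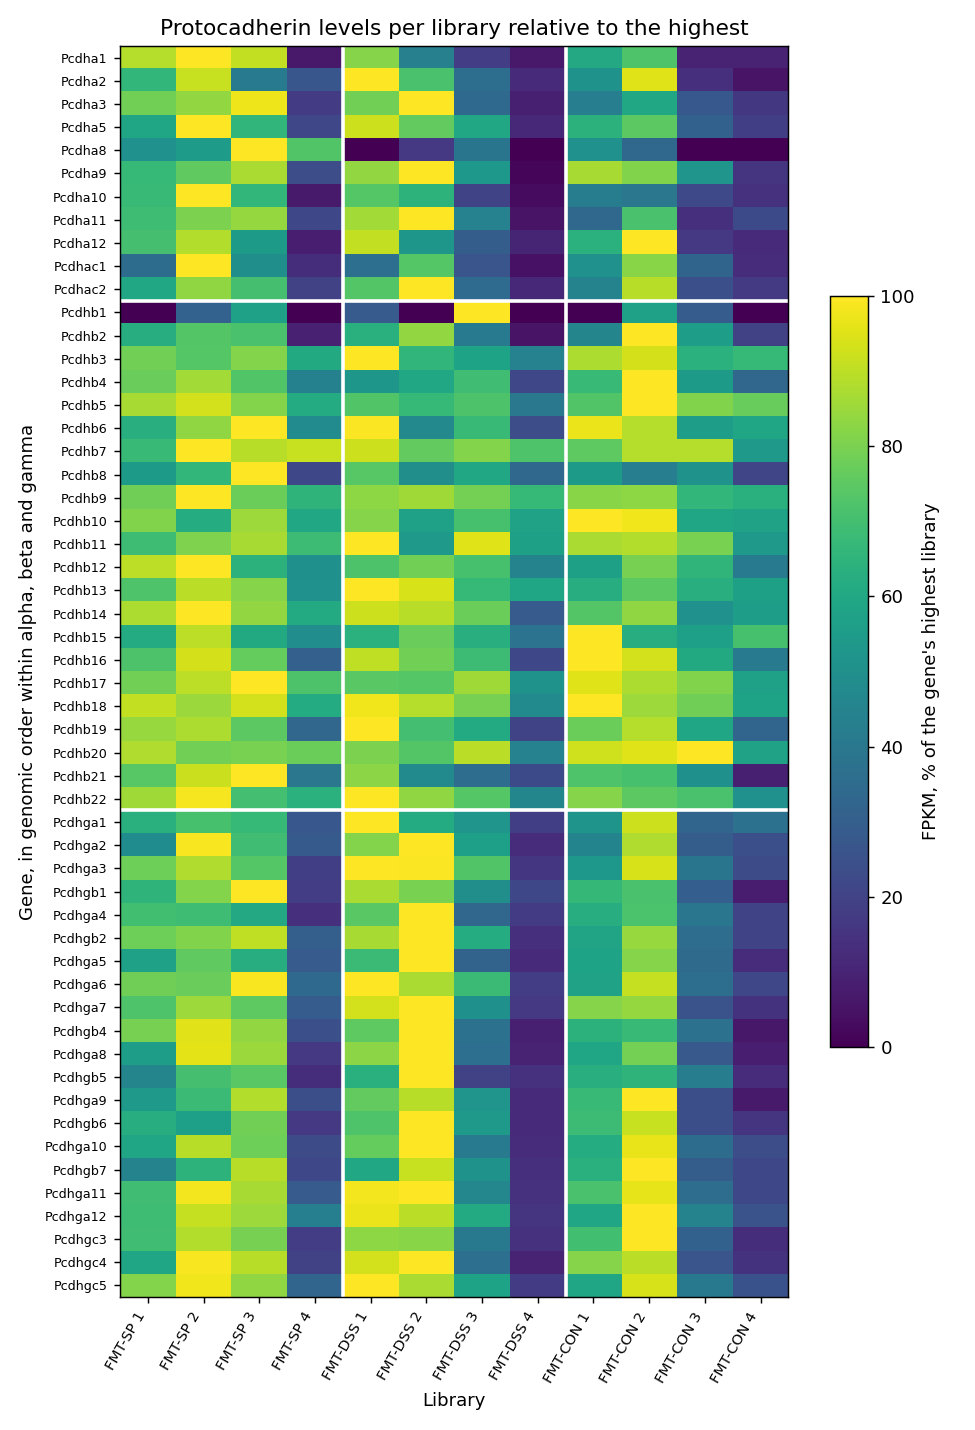
FPKM of each of the 54 genes in each library as a percentage of that gene's highest library, genes in genomic order from alpha (top) through beta to gamma (bottom), libraries from FMT-SP (left) through FMT-DSS to FMT-CON (right). The columns of the libraries numbered 4, and of FMT-DSS 3 and FMT-CON 3, are dark across alpha and gamma and less so across beta.

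The spread of a single gene over the 12 libraries was wide in 2 of the clusters. The ratio of highest to lowest library had a median of 7.75 over the 21 gamma genes, from 5.40 for Pcdhga1 to 15.9 for Pcdhgb4. It had a median of 17 over the 10 alpha genes without a 0, and of 2.40 over 21 such beta genes, from 1.58 for Pcdhb9 to 18.9 for Pcdhb2. Over all tested genes the median was 1.73, and it was 1.94 over the 7208 of them with a mean from 1 to 10 FPKM, the range of all 17 tested members. Medians over whole clusters, here and below, include genes below 1 FPKM, some of whose lowest values rest on few fragments. In FMT-DSS 4 Pcdha1 stood at 1.88 estimated fragments, Pcdha11 at 2.62 and Pcdhb2 at 0.553. Counting alone can widen such ratios. Pcdhac2, the tested alpha gene, had at least 109 estimated fragments in every library and a ratio of 8.75. A ratio of at least 5 was found for all 7 tested gamma genes, for Pcdhac2 and for 0 of 9 tested beta genes, against 5.76% of those 7208 genes. Over the 9 libraries numbered 1 to 3, a choice made after seeing the data, the median ratios were 3.15 for gamma, 4.49 for alpha, 1.72 for beta, 1.48 for all tested genes and 1.62 for those 7208. There the tested gamma genes ran from 2.23 to 4.17 and Pcdhac2 was at 4.11, so none of these 8 genes reached 5, against 3.67% of the 7208. A ratio of at least 2 was found there for all 7 tested gamma genes and 0 of 9 tested beta genes, against 28.2% of the 7208. These are descriptions of 12 libraries, with no test.

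Measures of the libraries as a whole moved with these levels. The ratio of summed gamma to summed beta FPKM was 1.30, 1.45, 1.45 and 0.623 in FMT-SP, 1.55, 1.80, 0.981 and 0.488 in FMT-DSS and 1.15, 1.59, 0.724 and 0.530 in FMT-CON. The mitochondrially encoded share was 19.4%, 16.2%, 18.3% and 24.0% in FMT-SP, 16.8%, 17.5%, 19.6% and 29.0% in FMT-DSS and 18.1%, 15.9%, 20.3% and 27.7% in FMT-CON. The 5 libraries with the lowest gamma to beta ratio, the 3 numbered 4 with FMT-CON 3 and FMT-DSS 3, were also the 5 with the highest mitochondrial share. They were, in the same order, the 5 in which genes with the longest transcripts were lowest. In the fifth of the tested genes with the longest models (transcripts of 5373 to 27908 bases), the median deviation from a gene's mean log2(FPKM + 1) was -0.16 in FMT-SP 4, -0.29 in FMT-DSS 4 and -0.22 in FMT-CON 4. In the fifth with the shortest transcripts (168 to 1965 bases) it was 0.10, 0.08 and 0.12. Tested genes with transcripts of 3962 to 5371 bases, the fifth that holds 8 of the 17 tested members, had a median ratio of highest to lowest library of 1.73. The part of RNA quality or tissue make-up in the differences between libraries was not tested.

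**Figure D4:**
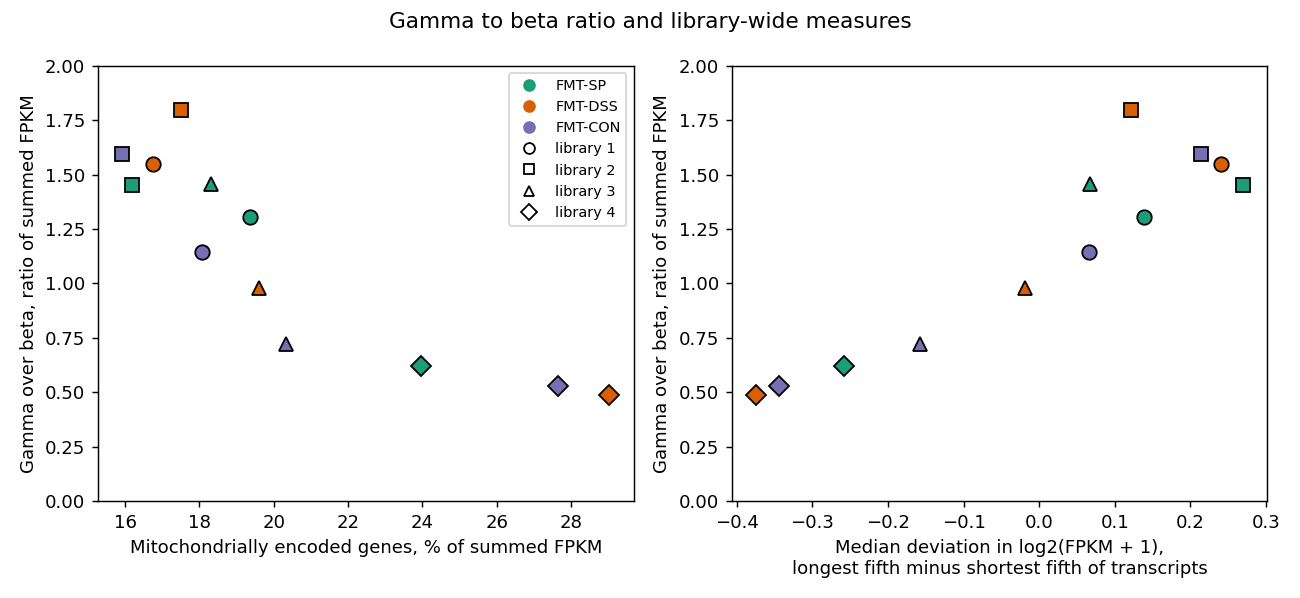
Ratio of summed gamma to summed beta FPKM in each library against the mitochondrially encoded share of FPKM (left) and against the median deviation of the genes with the longest minus that of genes with the shortest transcripts (right), coloured by FMT-SP, FMT-DSS and FMT-CON with shapes by library number. The 3 libraries numbered 4 have ratios of 0.488 to 0.623 and lie at the high end of the left axis and the low end of the right one.

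Marker lists of cells and neighbouring regions differed among themselves in the libraries numbered 4. Pan-neuronal markers summed to 1844 to 2109 FPKM in FMT-SP, 1607 to 2043 FPKM in FMT-DSS and 1847 to 2048 FPKM in FMT-CON. The library numbered 4 had the lowest sum of each group, at 91%, 80% and 92% of the median of libraries 1 to 3. Of the 10 markers, 7 were lowest in a library numbered 4, against 43.2% of all tested genes. All 7 were lowest in FMT-DSS 4, against 28.0% of all tested genes for that library. The interneuron sum was higher there, at 139%, 108% and 126% of that median in the same groups. The markers behind it went both ways. In each group library 4 was the highest for Cck and Npy and the lowest for Gad1, Gad2, Slc32a1 and Reln. The mean deviation of the 10 markers in log2(FPKM + 1) was 0.016 in FMT-SP 4, -0.24 in FMT-DSS 4 and -0.045 in FMT-CON 4. Markers of hippocampal principal neurons summed to 320 to 334 FPKM in FMT-SP, 291 to 338 FPKM in FMT-DSS and 263 to 354 FPKM in FMT-CON, with library 4 at 98%, 92% and 103% of that median. Astrocyte markers summed to 660 to 856 FPKM in FMT-SP, 581 to 863 FPKM in FMT-DSS and 578 to 832 FPKM in FMT-CON. Of these 10 markers, 9 were lowest in a library numbered 4, against the same 43.2%. FMT-SP 1, with the lowest choroid plexus sum of 20.04 FPKM, had a gamma sum of 37.0 FPKM, and FMT-DSS 4, with a choroid plexus sum of 2329 FPKM, had the lowest gamma sum. FMT-SP 4 and FMT-CON 4 were low in both, with choroid plexus sums of 58.1 and 33.3 FPKM, against medians of 1866 and 2063 FPKM in libraries 1 to 3 of their groups. Relative to those medians, the library numbered 4 held 82.9% of the ependymal sum in FMT-SP, 58.8% in FMT-DSS and 32.8% in FMT-CON, and 48.1%, 60% and 42.9% of the thalamic sum. For the striatal sum the values were 107%, 48.7% and 42.1%. The part of these markers in the levels of the clusters was not tested.

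FMT-DSS against FMT-CON asks what distinguishes recipients in the FMT-DSS group. No clustered protocadherin rose or fell past an adjusted p of 0.05 (limma, Benjamini-Hochberg over all 12559 tested genes), and 0% of all tested genes did. At an unadjusted p under 0.05 the members counted 0 of 17, against 4.06% of all tested genes. Among the alternate beta genes Pcdhb5 came closest, at 0.944 ± 0.234 FPKM in FMT-DSS and 1.24 ± 0.181 FPKM in FMT-CON (SD, n = 4 each). All 4 FMT-DSS libraries were below all 4 FMT-CON libraries, but the groups nearly touch. The highest FMT-DSS and the lowest FMT-CON values both round to 1.0909 FPKM. Its change in log2(FPKM + 1) was -0.21 ± 0.12 (SE), with an adjusted p of 0.966. FMT-DSS 4 lay far below the other 3 FMT-DSS libraries, and the change was -0.12 without it. Pcdhb5 was the 1 tested member of 17 whose groups did not overlap, against 1.75% of all tested genes.

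The remaining members of smallest p in FMT-DSS against FMT-CON showed differences within the spread of the libraries. Pcdhb20 averaged 2.30 ± 0.627 FPKM in FMT-DSS and 2.77 ± 0.624 FPKM in FMT-CON, a change of -0.19 ± 0.16, and of -0.32 without FMT-CON 4, the one FMT-CON library far below the rest, and of -0.05 without FMT-DSS 4. Pcdhga3 averaged 1.7 ± 0.929 FPKM in FMT-DSS and 1.23 ± 0.712 FPKM in FMT-CON, a change of 0.24 ± 0.33, which was 0.08 without FMT-CON 4 and 0.54 without FMT-DSS 4. Pcdhga7 changed by 0.17 ± 0.28 and Pcdhac2 by 0.18 ± 0.44. Their adjusted p-values in limma were at least 0.971. The fitted means were higher in FMT-DSS for 13 of the 17 tested members, with a median change of 0.08 against -0.03 over all tested genes. That count was 3 without FMT-CON 4, 6 without FMT-DSS 2 and 7 without FMT-DSS 1, and 6 with choroid plexus and striatal marker means as covariates. It was 14 without FMT-DSS 4. Without all libraries numbered 4 it was 13, with a median change of 0.11.

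Summed per cluster, FMT-DSS and FMT-CON differed by less than the SD between libraries. The gamma sum averaged 32.4 ± 19.1 FPKM in FMT-DSS and 27.7 ± 17.1 FPKM in FMT-CON, and the difference in log2 sums was 0.16 against a pooled SD of 1.11. For alpha the difference was 0.14 against 1.28, and for beta it was -0.07 against 0.35. The gamma difference was -0.24 without FMT-CON 4 and 0.73 without FMT-DSS 4, so its sign rested on single libraries.

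FMT-SP against FMT-DSS asks what distinguishes the group that also carries the SP label. Again 0 of 17 members passed the adjusted threshold in limma, with 0% of all tested genes, and 0 of 17 had an unadjusted p under 0.05, against 2.5% of all tested genes. No tested member had groups that did not overlap, against 1.27% of all tested genes. Pcdhb5 averaged 1.21 ± 0.206 FPKM in FMT-SP and 0.944 ± 0.234 FPKM in FMT-DSS, a change in log2(FPKM + 1) of 0.19 ± 0.12 with an adjusted p of 0.999 in limma. Pcdhb17 averaged 3.65 ± 0.530 FPKM in FMT-SP and 3.06 ± 0.625 FPKM in FMT-DSS, a change of 0.21 ± 0.15. Without FMT-DSS 4 the change of Pcdhb5 was 0.10 and that of Pcdhb17 0.09. The FMT-DSS libraries serve in both comparisons in which Pcdhb5 is named for its p.

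The gamma and alpha members of smallest p differed by less than their standard errors. Pcdhgc5 averaged 9.94 ± 3.84 FPKM in FMT-SP and 8.84 ± 4.94 FPKM in FMT-DSS, a change of 0.26 ± 0.47. Pcdhga12 changed by 0.12 ± 0.25 and Pcdhac2 by 0.15 ± 0.44. The 95% interval for Pcdhgc5 ran from -0.76 to 1.29, so a doubling of FPKM + 1 lies within it. Fitted means were higher in FMT-SP for 15 of the 17 tested members, with a median change of 0.12 against 0.03 over all tested genes. That count was 5 without FMT-DSS 4 and 4 without FMT-DSS 2 and FMT-DSS 4, and the change of Pcdhgc5 without FMT-DSS 4 was -0.19. Without all libraries numbered 4 the count was 12, with a median change of 0.03.

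The summed gamma level averaged 35.0 ± 14.9 FPKM in FMT-SP and 32.4 ± 19.1 FPKM in FMT-DSS, with a difference in log2 sums of 0.26 against a pooled SD of 1.04. For alpha the difference was 0.38 against 1.26 and for beta 0.17 against 0.33. Without FMT-DSS 4 the 3 differences were -0.31, -0.29 and -0.02. With 1 library left out they ran up to 0.67, 0.88 and 0.29. Among members too low for the test, Pcdha8 was above all FMT-DSS and all FMT-CON libraries in all 4 FMT-SP libraries, although FMT-SP 1 and FMT-CON 1 rested on 3.05 and 3.06 estimated fragments. In a limma fit without a filter on low values it had an unadjusted p of 0.0146 against FMT-DSS and an adjusted p of 0.998. It was 1 of 54 members with an unadjusted p under 0.05 there, against 3.25% of all genes. Its values rested on 2.04 estimated fragments per library on average. The share of genes whose groups do not overlap was not counted below the filter.

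FMT-SP against FMT-CON sets the SP group beside the FMT-CON group. No member of 17 and 0% of all tested genes passed the adjusted threshold in limma, and 0 of 17 members had an unadjusted p under 0.05, against 0.358% of all tested genes. No tested member had groups that did not overlap, against 0.494% of all tested genes. Pcdhgc5 averaged 9.94 ± 3.84 FPKM in FMT-SP and 7.37 ± 4.0 FPKM in FMT-CON, a change in log2(FPKM + 1) of 0.42 ± 0.47. It was 0.15 without FMT-CON 4, 0.27 without FMT-SP 2, 0.70 without FMT-CON 2 and 0.73 without FMT-SP 4. Pcdhb12 averaged 2.12 ± 0.637 FPKM in FMT-SP and 1.7 ± 0.442 FPKM in FMT-CON, a change of 0.20 ± 0.17, with a range of 0.10 (without FMT-CON 4 or FMT-SP 2) to 0.32 (without FMT-SP 4). Pcdhb14 averaged 1.68 ± 0.325 FPKM in FMT-SP and 1.32 ± 0.307 FPKM in FMT-CON, a change of 0.20 ± 0.19, with 0.14 to 0.29 when 1 library was left out.

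The change in FMT-SP against FMT-CON was 0.20 ± 0.25 for Pcdhga12 and 0.33 ± 0.44 for Pcdhac2. Without FMT-CON 4 these were 0.05 and 0.12, and without FMT-CON 2 they were 0.36 and 0.63. Fitted means were higher in FMT-SP for 15 of the 17 tested members, with a median change of 0.17 against -0.01 over all tested genes. They were higher for 11 of 17 without FMT-CON 4, for 16 without FMT-CON 2 or FMT-SP 4, and for 17 with the marker covariates. Without all libraries numbered 4 they were higher for 16 of 17, with a median change of 0.17. The summed gamma level averaged 35.0 ± 14.9 FPKM in FMT-SP and 27.7 ± 17.1 FPKM in FMT-CON. The difference in log2 sums was 0.42 against a pooled SD of 0.92 for gamma, 0.52 against 1.05 for alpha and 0.10 against 0.28 for beta. Without FMT-CON 4 the differences were 0.02, 0.13 and -0.04. With 1 library left out they ran up to 0.84, 1.02 and 0.22.

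**Figure D5:**
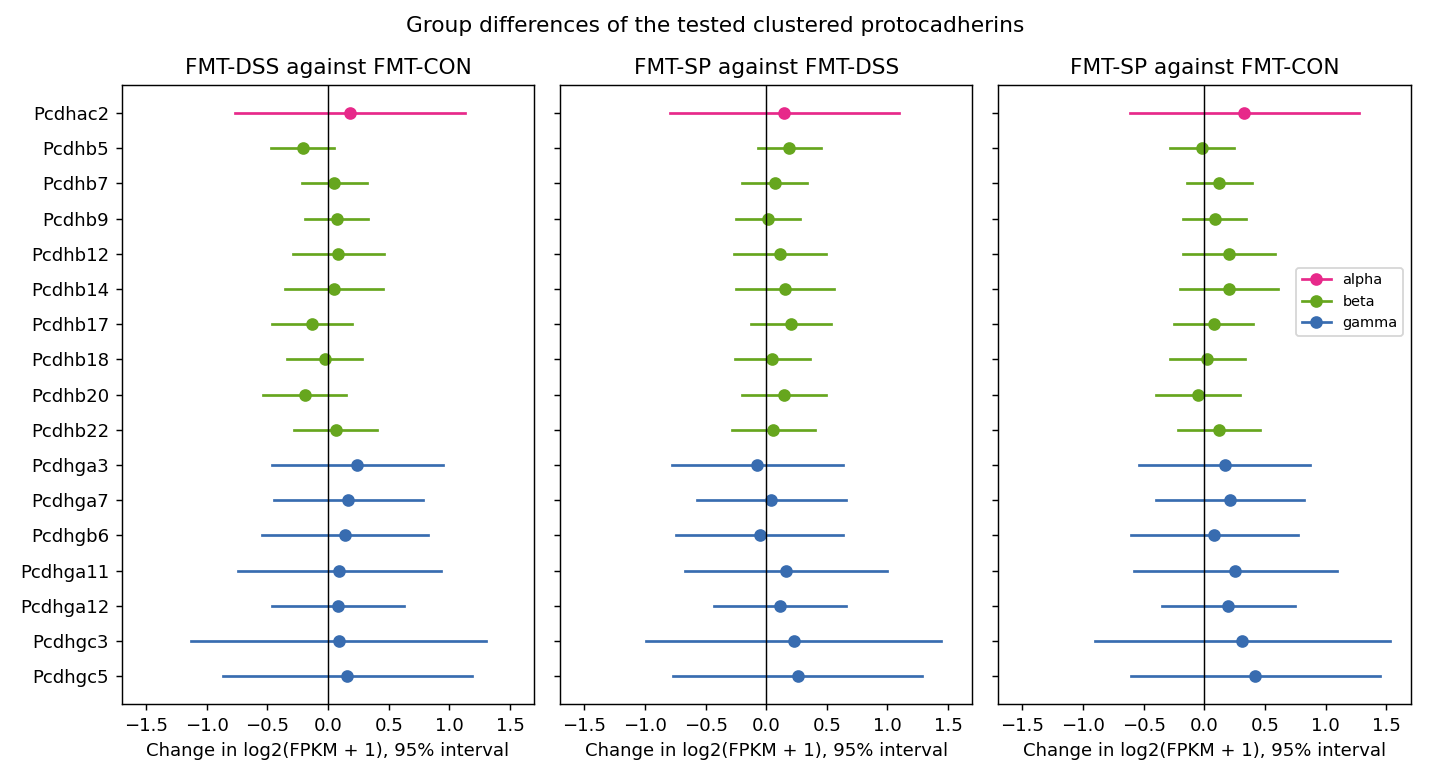
Change in log2(FPKM + 1) with its 95% interval (limma) for the 17 tested clustered protocadherins, in the 3 comparisons (title of each panel), coloured by cluster. All intervals include 0, and those of alpha and gamma genes are wider than those of beta genes.

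Genes that act on or with the clustered protocadherins were also without a call. The list of regulators holds CTCF, the cohesin subunits and loaders, Smchd1, and enzymes that add, remove or read DNA and histone methylation. Of its 21 genes 18 were tested, with 0 past the adjusted threshold in either direction in any of the 3 comparisons. Tet2, an enzyme that oxidises methylated cytosine, averaged 5.28 ± 0.661 FPKM in FMT-SP, 6.54 ± 1.02 FPKM in FMT-DSS and 5.50 ± 0.590 FPKM in FMT-CON. Its change was -0.26 ± 0.12 in FMT-SP against FMT-DSS (limma, adjusted p 0.999) and 0.21 ± 0.12 in FMT-DSS against FMT-CON (adjusted p 0.966). Dnmt3a, a DNA methyltransferase, averaged 3.25 ± 0.360 FPKM in FMT-SP and 3.66 ± 0.389 FPKM in FMT-CON, a change of -0.13 ± 0.13. The cohesin subunit Smc3 changed by 0.08 ± 0.14 in the same comparison, the cohesin release factor Pds5a by 0.16 ± 0.10 in FMT-SP against FMT-DSS and the CTCF-associated zinc finger gene Zfp143 by 0.17 ± 0.14 in FMT-DSS against FMT-CON.

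Intracellular partners, among them kinases, the WAVE complex and proteases that cut protocadherins, were tested for 20 of 20 genes with 0 adjusted calls in each comparison. Marcks, an actin-linked protein kinase C substrate on the pathway downstream of gamma protocadherins, averaged 21.6 ± 0.401 FPKM in FMT-SP, 18.1 ± 2.65 FPKM in FMT-DSS and 22.4 ± 3.22 FPKM in FMT-CON. Its change in FMT-DSS against FMT-CON was -0.30 ± 0.12, with an adjusted p of 0.966 in limma. It was 1 of 20 genes on this list with an unadjusted p under 0.05 in that comparison, against 4.06% of all tested genes. The kinase Ptk2b, which protocadherin cytoplasmic domains bind and inhibit, averaged 173 ± 2.94 FPKM in FMT-SP, 187 ± 22.3 FPKM in FMT-DSS and 158 ± 28.5 FPKM in FMT-CON, with a change of 0.25 ± 0.13 in FMT-DSS against FMT-CON and 0.15 ± 0.13 in FMT-SP against FMT-CON. Ctnnb1 changed by 0.17 ± 0.16 in FMT-SP against FMT-DSS, and Ret, a receptor kinase that binds protocadherins, by -0.39 ± 0.32 in FMT-SP against FMT-CON.

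Non-clustered protocadherins lie outside the 3 clusters and do not use this promoter choice. Of 12 genes 9 were tested, with 0 adjusted calls in each comparison, and Pcdh12 was at 0 in 1 library. Pcdh1 averaged 21.6 ± 3.43 FPKM in FMT-SP, 16 ± 4.88 FPKM in FMT-DSS and 18.7 ± 4.54 FPKM in FMT-CON. Its change was 0.45 ± 0.22 in FMT-SP against FMT-DSS (limma, adjusted p 0.999), -0.24 ± 0.22 in FMT-DSS against FMT-CON and 0.21 ± 0.22 in FMT-SP against FMT-CON. Without FMT-DSS 4 the first of these was 0.24 and the next -0.03. Pcdh20 changed by 0.35 ± 0.24 in FMT-SP against FMT-DSS, Pcdh19 by 0.23 ± 0.25 in FMT-SP against FMT-CON and Pcdh8 by -0.11 ± 0.13 in FMT-DSS against FMT-CON. Fitted means of all 9 were higher in FMT-SP than in FMT-DSS, with a median change of 0.13, against 59.0% of all tested genes. Without FMT-DSS 4 that held for 5 of the 9, with a median change of 0.0021. Fitted means of all 9 were also higher in FMT-SP than in FMT-CON, with a median change of 0.10, against 46.7% of all tested genes. Without FMT-CON 4 this was so for 5 of the 9, with a median change of 0.04. All 9 were lowest of the 12 libraries in a library numbered 4, as were all 17 tested clustered genes, against 43.2% of all tested genes. Their median ratio of highest to lowest library was 2.68, against 6.92 for the 7 tested gamma genes, and over the libraries numbered 1 to 3 it was 1.67 against 2.81.

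Classical and type II cadherins, adhesion proteins of the same superfamily, were tested for 12 of 15 genes with 0 adjusted calls. Cdh9, a synaptic cadherin of hippocampal CA3 neurons in mice, averaged 8.04 ± 0.376 FPKM in FMT-SP, 6.23 ± 2.25 FPKM in FMT-DSS and 7.76 ± 1.88 FPKM in FMT-CON. Its change was 0.39 ± 0.24 in FMT-SP against FMT-DSS and -0.32 ± 0.24 in FMT-DSS against FMT-CON. FMT-DSS 2 was at 2.94 FPKM and the other FMT-DSS libraries at 6.96 to 8.0 FPKM, and without it these changes were 0.12 and -0.05. Cdh11 changed by 0.33 ± 0.20 in FMT-SP against FMT-DSS and 0.11 ± 0.20 in FMT-SP against FMT-CON, Cdh20 by -0.31 ± 0.23 in FMT-DSS against FMT-CON and Cdh2 by 0.25 ± 0.29 in FMT-SP against FMT-CON. The median ratio of highest to lowest library was 2.28 over the 12 tested genes, beside 2.17 over the 9 tested beta genes, and 1.76 beside 1.47 over the libraries numbered 1 to 3.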

How the data were processed

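The deposited table holds 1 FPKM value per gene and library, computed by the authors. The submitters' processing notes list HISAT2 2.0 and the build mm8, with no role for either. Read counter, annotation and filters: not given in the sources used here. Groups and numbers come from the sample titles.

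Values were tested as log2(FPKM + 1) for the 12559 genes averaging 1 FPKM or more, all 12 libraries in 1 linear model with a mean-variance trend (limma 3.58.1, R 4.3.3), two-sided, adjusted by Benjamini-Hochberg over those genes, with 0.05 as the threshold. Cluster sums and ratios were compared without a test. Gene models came from GENCODE vM21 (GRCm38) and names from RefSeq, for which all 54 symbols matched. Since the builds differ, no coordinates are given. Depth was estimated from the steps of 1 fragment in low values of 4679 genes with a single annotated transcript, and 38.7% to 42.4% of these values were whole fragments within a tolerance of 0.05, where chance gives 10%. The model was tested on simulated data.

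The members and gene lists were chosen with earlier results of these data known. Named members were the C-type genes, the 3 highest and the lowest of each cluster by mean, the 2 of smallest p per cluster and comparison, members past the threshold and tested members whose groups did not overlap. Of related lists, the 2 of smallest p were named per comparison.

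Groups share replicate numbers. Deviations of same-numbered libraries from their group means correlated at 0.36, 0.35, 0.11 and 0.69 between FMT-SP and FMT-DSS. FMT-SP 3 did not correlate best with FMT-DSS 3. In the other 2 comparisons at least 1 pair was under 0.1. Between FMT-SP and FMT-CON, numbers 1 and 3 were at -0.33 and -0.45. The main fit is unpaired in all 3 comparisons, and possible pairing enters only through the replicate block. Alternatives were a pseudocount of 0.1, lower and no filters, 2 rescalings, 2 groups fitted alone, a replicate block, array weights, marker covariates and leaving out libraries.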

Additional observations from a re-analysis of the deposited data

Results flagged for a closer look

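In 75 sets of 4 libraries (each named member, cluster sum and ratio of sums, in each group), 2 had a single library far from the other 3, which were close together. Chance alone flags about 1 set in 20. Pcdhb5 was at 0.598 FPKM in FMT-DSS 4, against 1.01 to 1.09 FPKM in the other 3 FMT-DSS libraries. Pcdhb20 was at 1.84 FPKM in FMT-CON 4, against 2.97 to 3.20 FPKM in the other 3 FMT-CON libraries. Both are libraries numbered 4, and the mitochondrially encoded share was 29.0% in FMT-DSS 4 and 27.7% in FMT-CON 4. The part of that share in these values was not tested.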

How the results depend on the processing

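Under 11 other settings and 12 fits with 1 library left out, 0 clustered protocadherins passed the adjusted threshold in each of the 3 comparisons. Adjusted p-values of the named members ran from 0.142 to 1. With choroid plexus and striatal marker means as covariates, 14 genes passed in FMT-SP against FMT-DSS, none of them a member, against 0 otherwise. The replicate block left 0 members past the threshold in every comparison. It raised the genes at an unadjusted p under 0.05 to 885 in FMT-SP against FMT-DSS, against 314 without it, to 1274 against 510 in FMT-DSS against FMT-CON and to 310 against 45 in FMT-SP against FMT-CON, where it held 1 member, Pcdhgc5. Further members at an unadjusted p under 0.05 were Pcdha8 without a filter and, in FMT-SP against FMT-DSS, Pcdhb17 with marker covariates (p 0.00725, limma). With array weights Pcdhb12, Pcdhb14 and Pcdhgc5 were so in FMT-SP against FMT-CON. Without FMT-CON 4 Pcdhb20 was so in FMT-DSS against FMT-CON. Without a filter Pcdha8 was so in FMT-SP against both other groups, with 3.25% of all genes against FMT-DSS and 1.63% against FMT-CON. For the other fits, in the comparison named for each, the shares of all genes were 18.0% with marker covariates, 9.13% with array weights and 5.07% without FMT-CON 4.

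Some named members changed sign between settings, and the cause was not tested. In the main fit the intervals of all tested members include 0, whether or not their sign changed. In FMT-DSS against FMT-CON Pcdhac2 was at -0.012 with marker covariates. In FMT-SP against FMT-DSS Pcdhgc5 was at -0.14 and Pcdhga12 at -0.080 without FMT-DSS 2 and FMT-DSS 4, and Pcdhga12 at -0.0025 without the libraries numbered 4. Leaving out each library in turn, Pcdhac2 ran from -0.10 to 0.53 and Pcdhga7 from -0.0074 to 0.39 in FMT-DSS against FMT-CON. In FMT-SP against FMT-DSS Pcdhac2 ran from -0.20 to 0.44, Pcdhga12 from -0.12 to 0.25 and Pcdhgc5 from -0.19 to 0.57. With 1 library left out, differences in log2 gamma sums ran from -0.24 to 0.73 in FMT-DSS against FMT-CON, from -0.31 to 0.67 in FMT-SP against FMT-DSS and from 0.02 to 0.84 in FMT-SP against FMT-CON. Depth limits Pcdha8 and Pcdhb1 most, at 2.04 and 0.826 estimated fragments per library on average.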
